A study of Mus musculus with 5 samples.

Results

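The genes of the islet hormones and of the receptor for the incretin GLP-1 were examined for binding of the repressor REST in embryonic mouse pancreas. The set was given as a list of 9 genes, out of 22367 protein-coding genes in the annotation, with no threshold on a measured value, but with results of these data known when it was drawn up. It holds 8 hormone genes, namely Ins1, Ins2, Gcg, Sst, Ppy, Pyy, Ghrl and Iapp, and 1 receptor gene, Glp1r. A peak was given to a gene when it overlapped the gene body or lay within 50 kb of the gene start. This window spanned 100 kb at each of the 9 genes. It was longer for genes that reach further, so shares over all genes mix window lengths. ChIP-seq was done with 12C11, a mouse monoclonal antibody against the C-terminal region of REST, on whole, untreated, wild-type pancreas of embryos of a mixed strain with C57BL/6. There were 3 libraries at E18.5 (A, B and C), each from 3 to 4 pooled organs, and 2 libraries at E13.5 (A and B), each from 4 to 6 pooled organs, and the libraries of a stage are described as biological replicates. The pooled embryos were not analysed singly, and fewer cells with a bound site cannot be told apart from weaker binding in each cell.

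REST is a zinc-finger protein that recognises a long DNA element called RE1 and recruits corepressors, which keeps neuronal genes silent outside the nervous system. Islet cells share several such genes with neurons, and both use regulated secretion. The hormones of the set are products of islet endocrine cells. Insulin (Ins1 and Ins2 in the mouse) and amylin (Iapp) are released by β cells, glucagon (Gcg) by α cells, somatostatin (Sst) by δ cells, pancreatic polypeptide (Ppy) by PP cells and ghrelin (Ghrl) by the ε cells of the embryonic pancreas, while peptide YY (Pyy) is made by several islet and gut endocrine cells. Gcg also encodes GLP-1, and Glp1r is the class B receptor through which GLP-1 enhances insulin secretion.

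The peak lists held 541, 417 and 226 peaks in E18.5 A, B and C, and 1400 and 1333 peaks in E13.5 A and B. The number of reads behind each list was not used here and the depth is unknown. A missing peak therefore means that none was called, not that REST was absent. The peak lists carry no expression values, so the labelled tissue could not be checked against marker genes.

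REST peaks were found at 2 of the 9 genes, the hormone gene Sst and the receptor gene Glp1r, and both were called at E13.5 only. The sequences under these peaks are shown because each holds a recognisable RE1. The element was learned from the data, as the 21-bp pattern that best aligned the sites of both E13.5 libraries outside the windows of the 9 genes (847 of 1181 sites aligned). Of its positions 19 had a base present in more than 50% of the aligned sites, and N marks the others. The strength of a match is its log-odds in bits against equal base frequencies, where the best possible sequence scores 35.0. In the lines below capitals mark bases equal to the learned consensus, and each sequence is the match of the E13.5 site, read in the direction of the consensus.
Learned consensus: TTCAGCACCANGGACAGCNCC
Sst: TTCAGCACCggGGtCAGCaaC
Sst, next match: gcCAGCACCAgGGAtAGagCC
Glp1r: TTCAGCACtctGGcCAGCtCC

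The Sst match lay on chromosome 16 (mm9, 23890418 to 23890438), on the strand opposite to the gene, with its centre 502 bp downstream of the start. It had 3 mismatches and a log-odds of 21.3. The next match in the Sst peak began 27 bp further along the same strand (23890445 to 23890465), with 6 bases between the 2 elements, 4 mismatches and a log-odds of 20.9. The Glp1r match lay on chromosome 17 (31075778 to 31075798), on the strand of the gene, with 3 mismatches and a log-odds of 23.6. Mismatches were counted over the 19 positions with a consensus base. Sst and Glp1r thus each held 1 element at the same number of mismatches. Sst held a weaker match beside it, which passed the limit set from control windows (below) by 0.00087 only.

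The whole E13.5 A peaks are printed on the plus strand, with these matches in capitals, to show how they sit within the called regions.
Sst, chr16:23890342-23890526: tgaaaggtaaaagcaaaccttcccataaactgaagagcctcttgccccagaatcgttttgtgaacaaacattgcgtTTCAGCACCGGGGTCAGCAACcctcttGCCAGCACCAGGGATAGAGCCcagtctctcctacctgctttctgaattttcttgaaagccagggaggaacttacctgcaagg
Glp1r, chr17:31075719-31075844: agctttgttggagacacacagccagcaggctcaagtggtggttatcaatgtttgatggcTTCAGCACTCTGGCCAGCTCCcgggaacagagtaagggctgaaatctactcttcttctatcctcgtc

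Sst (ENSMUSG00000004366.3, chromosome 16, 23889667 to 23890930, minus strand) encodes the peptide with which δ cells restrain insulin and glucagon release. No peak was called in its window in any of the 3 E18.5 libraries, while E13.5 A had a peak of score 12 and E13.5 B one of score 11. The score is the authors' whole number for a peak, in a unit not given in the sources used here, so it was read as a percentile of the scores in the same library, with 100 the highest. The Sst peak stood at 39.7 in E13.5 A, where 803 of 1400 peaks scored higher, and at 18 in E13.5 B, where 1056 of 1333 did. It was thus a low-ranked peak in both libraries, and lower in E13.5 B than in E13.5 A. The peak was 185 bp long in E13.5 A (23890342 to 23890526) and 428 bp in E13.5 B (23890202 to 23890629), and both lay wholly within the single intron of Sst. Their centres were 496 and 514.5 bp downstream of the start. The stronger RE1 was centred 6 and 12.5 bp from these centres. The next nearest protein-coding start was that of Rtp2, 40.4 kb away.

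Glp1r (ENSMUSG00000024027.6, chromosome 17, 31038785 to 31073455, plus strand) had no peak in its window in any of the 3 E18.5 libraries, against a peak of score 16 in E13.5 A and one of score 19 in E13.5 B. These corresponded to percentiles of 59.0 and 57.3, with 548 and 550 peaks scoring higher, so that the site ranked above the middle of both E13.5 lists and at nearly the same place in each. The peaks were 126 bp (31075719 to 31075844) and 475 bp long (31075562 to 31076036). They were intergenic, beginning 2264 and 2107 bp beyond the annotated end of Glp1r, 37.0 kb from its start. The RE1 was centred 6.5 and 11 bp from the peak centres. The nearest protein-coding start was not that of Glp1r but that of Umodl1, 15.8 kb away, so the site came to Glp1r through the 50-kb window.

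**Figure D1:**
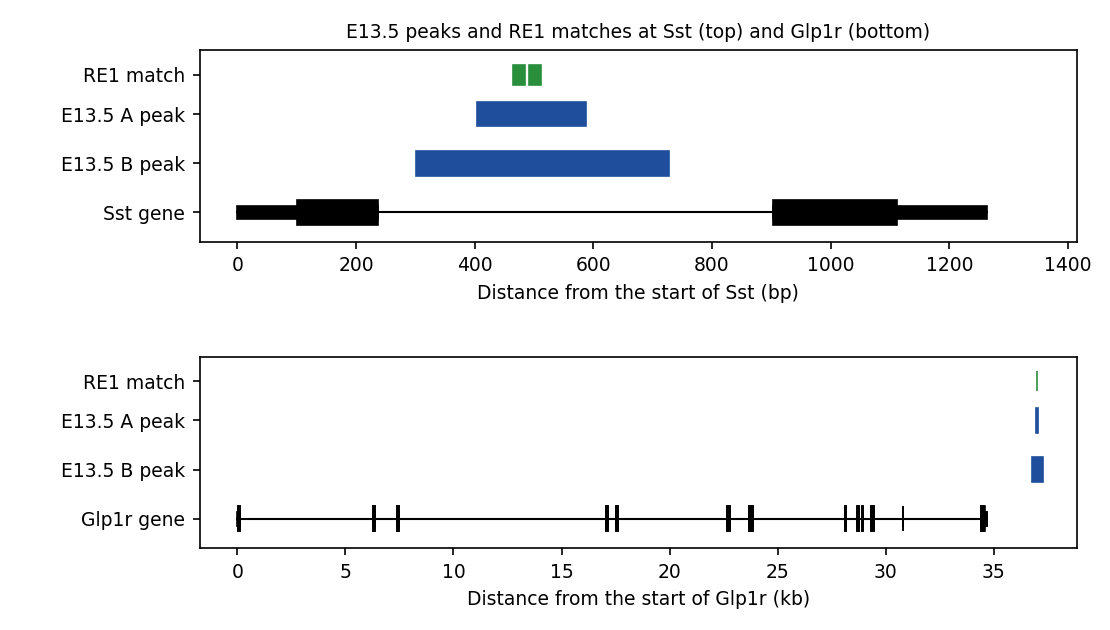
Called E13.5 peaks (blue bars) and RE1 matches (green) at Sst and Glp1r, over the gene model (black, coding exons thick), plotted as distance from the gene start in bp for Sst and in kb for Glp1r. The Sst peaks lie in the intron around 2 adjacent matches, and the Glp1r peaks lie just beyond the last exon around 1 match. The weaker Sst match passed the limit set from control windows by 0.00087 only.

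At the other 7 genes no peak was called in any library. For the whole set, 0 of 9 genes had a site in at least 2 E18.5 libraries, against 2.2% of all protein-coding genes, and 2 of 9 had a site in both E13.5 libraries, against 6.9%. In single libraries, 0 of 9 had a peak in E18.5 A, B and C, where 3.29%, 3.06% and 1.97% of all genes had one, and 2 of 9 in E13.5 A and B, where 7.86% and 7.57% did. With a background this low, 0 of 9 at E18.5 is not a result about the hormone genes as a group, and the E13.5 count amounts to 2 genes. No test was made over the list, since its members were chosen with results of these data known.

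**Figure D2:**
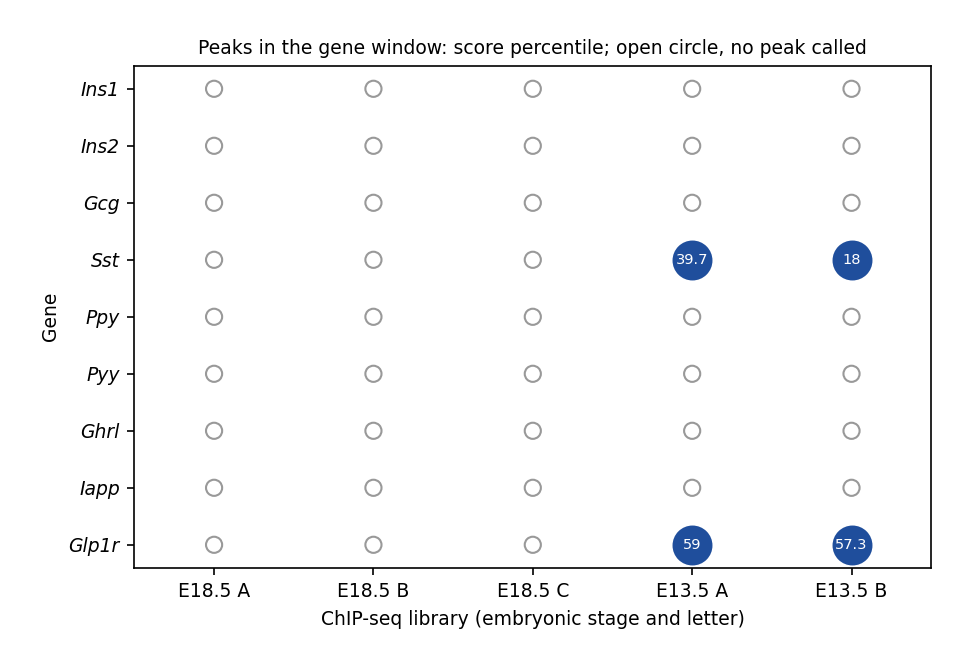
Score percentile of the peak in the window of each gene (filled circles with the value) in the E18.5 libraries (left) and E13.5 libraries (right), with open circles where no peak was called. Peaks were called at Sst (39.7 and 18) and Glp1r (59.0 and 57.3) at E13.5, and at none of the 9 genes at E18.5.

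Between the stages, the percentile of the Sst peak, taken as 0 where none was called, averaged 0 ± 0 at E18.5 (SD, n = 3) and 28.8 ± 15.3 at E13.5 (SD, n = 2). For Glp1r the values were 0 ± 0 at E18.5 (SD, n = 3) and 58.1 ± 1.17 at E13.5 (SD, n = 2). These values are a description. Sst and Glp1r are given because they had an E13.5 peak, the E18.5 values are 0 because none was called there, and the E18.5 lists hold fewer peaks, so the percentiles do not measure a change in binding between the stages. The exact permutation test planned for them (3 libraries against 2) could only return its smallest possible p and is not used.

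How often sites of like rank were called again at E18.5 gives a measure for the missing peaks. The Sst site came 939th of the 1186 sites shared by both E13.5 libraries when ordered by mean percentile. Of 149 other shared sites within 5 percentile points of it, 12 were called in 1 or more E18.5 libraries (8.05%, exact 95% interval 4.23 to 13.6). The Glp1r site came 539th, and 53 of 148 sites of like rank were called at E18.5 (35.8%, 28.1 to 44.1). Over all shared sites the share was 40.5%. For sites ranked like Sst and like Glp1r, a missing call at E18.5 was thus the more frequent outcome, and the interval covers counting error over sites only.

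The remaining hormone genes differed widely in how far they lay from any called peak. The median protein-coding gene was 2870 kb from a site of at least 2 E18.5 libraries and 716 kb from a site of both E13.5 libraries. Sst was nearer to an E13.5 site than all but 0.626% of genes, and Glp1r than all but 4.89%. For these genes the ranking restates that each had a shared E13.5 site in its window.

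Ghrl (chromosome 6, 113666113 to 113669874) followed, with 13.8% of genes nearer to one. Its nearest peaks were 133, 7750 and 7750 kb upstream in E18.5 A, B and C, and 124 and 123 kb upstream in E13.5 A and B. The E13.5 pair and the E18.5 A peak, which was another site, lay in the body of Atp2b2, a plasma membrane calcium pump gene, well outside the Ghrl window.

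Ppy (chromosome 11, 101961244 to 101962633) and Pyy (101967990 to 101969146) are neighbouring paralogues of the neuropeptide Y family, with overlapping windows, and thus share their surroundings. The peak nearest to Ppy was 1820 kb away in E18.5 A but 292 kb upstream in E18.5 B and C and in E13.5 A and B. It sat at the start of Rundc3a, with a score percentile of 66.3 and 7.74 in E18.5 B and C, against 92.8 and 84.6 in E13.5 A and B. For Pyy the same peak was 286 kb away. Among the 7 genes without a peak, Ppy and Pyy were the ones whose nearest shared E13.5 site was also called in at least 2 E18.5 libraries.

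Ins2 (chromosome 7, 149864561 to 149885415) encodes the insulin form that mice share with other mammals. Its nearest peaks were 262, 1470 and 15800 kb away in E18.5 A, B and C, and 726 kb in both E13.5 libraries, where they had Brsk2 as the nearest gene. The closest, in E18.5 A only, was near Syt8 and had a percentile of 27. The annotated Ins2 gene includes transcripts that start up to 19977 bp apart, and the distances were taken from the most upstream start, at 149885415. Igf2 was the other protein-coding gene of the window, and no peak was added when all starts were used.

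Ins1 (chromosome 19, 52338813 to 52339946), the rodent retrogene copy of insulin, was alone in its window. Its nearest peaks were 5250, 3910 and 5250 kb away in E18.5 A, B and C, and 1910 and 1600 kb in E13.5 A and B. By distance to a shared E13.5 site Ins2 was an ordinary gene, with 50.4% of genes nearer to one, while 75.2% were nearer than Ins1.

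Gcg (chromosome 2, 62312587 to 62321707) had its nearest peaks 1270, 3600 and 17000 kb away in E18.5 A, B and C, and 703 kb upstream in both E13.5 libraries, next to the potassium channel gene Kcnh7. Iapp (chromosome 6, 142246943 to 142252481) was the most remote from a shared E13.5 site, with 3710 kb, and 87.8% of genes were nearer to one. In single libraries its nearest peaks were 14500, 2580 and 14500 kb away in E18.5 A, B and C, and 3710 and 1460 kb in E13.5 A and B. Within 1 Mb of the start, neither Ins1 nor Iapp had any shared site of either stage.

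**Figure D3:**
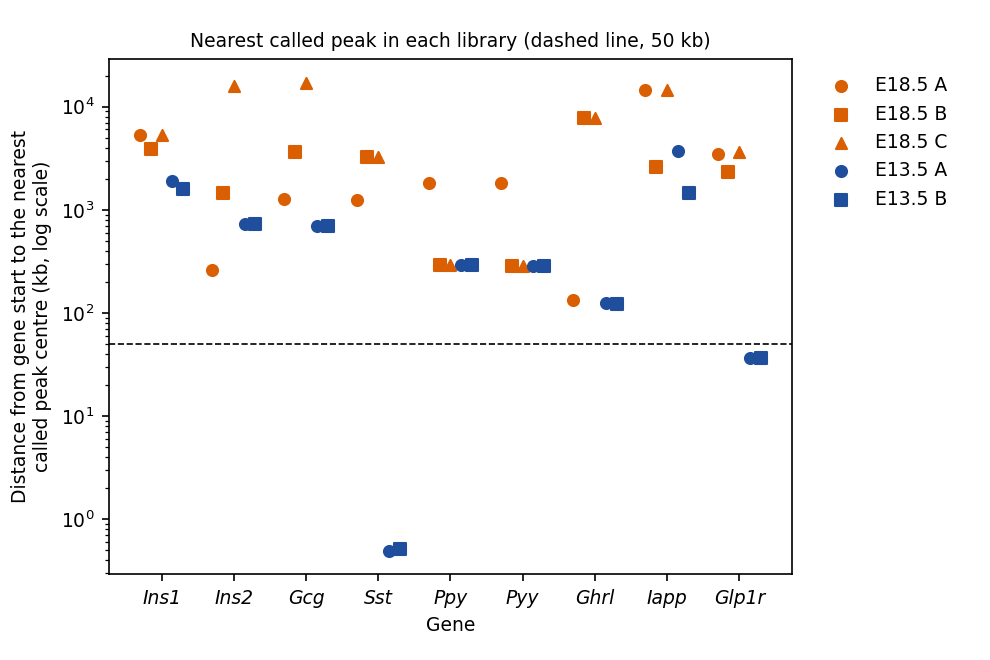
Distance from each gene start to the centre of the nearest called peak (kb, log scale) in the E18.5 libraries (orange) and E13.5 libraries (blue), with marker shape for the library letter and a dashed line at 50 kb. Sst at 0.496 and 0.514 kb and Glp1r at 37.0 kb lie below the line at E13.5, and all other points lie above it, the next being Ghrl at 123 kb.

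The best RE1 match of each window was set beside the peak calls. The motif came from E13.5 sites of these same libraries, of which 79.9% held a match above a log-odds of 7.64. The best matches of Sst and Glp1r were those inside their peaks. A stronger match at the genes with a peak is therefore not independent support for the peaks. The best matches of the 7 genes without a peak are shown for comparison with the Sst and Glp1r elements, again with capitals at bases equal to the learned consensus.
Pyy: TgtAGgACCAtGGACAGtttC
Ghrl: acCAGCACCAttGcCAGCtgC
Ins2: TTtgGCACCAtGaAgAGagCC
Ppy: TgCAGggCCAtGGcCAGggCC
Gcg: aTaAGtAgCAtGGACAGaaaC
Iapp: TTtAGaACaAtGGACAagaga
Ins1: TTCAGaAaCAttGcCAGtaCC

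The log-odds of the best match was 21.3 at Sst and 23.6 at Glp1r, the genes with a peak. In the order of the lines above, it was 18.4 at Pyy, 14.3 at Ghrl, 11.5 at Ins2, 11.4 at Ppy, 8.04 at Gcg, 5.7 at Iapp and 4.56 at Ins1. The 2 genes with a peak were thus above all 7 without one, with Pyy the closest of these to Sst. A stronger match than that of Glp1r was present in 5.79% of all 22367 windows, and one stronger than that of Sst in 8.22%. The windows of long genes exceed the 100 kb of each member and hold more sequence to search, and the shares were not matched for length. For Pyy the share was 13.2% and for Ghrl 32.1%, while Gcg, Iapp and Ins1 were passed by 87.6%, 97.1% and 98.9% of windows. With 2 genes on one side this is a description, and no test was made.

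Matches of the strength seen at Sst and Glp1r were uncommon in the control windows. Above a log-odds of 20.9, the limit set at the upper 0.1% of 500-bp control windows located 10 kb from the sites, 2 of 9 members had a match, against 8.84% of all gene windows. The limit is interpolated and was passed by 2 of the 1183 control windows (0.169%). The same number passed the best match of Pyy at 18.4, so that where the limit falls between Pyy and Sst is arbitrary, and the weaker Sst match exceeded it by 0.00087 only. Above 7.64, the limit of 1% of control windows, 7 of 9 members had a match, but so did 89.7% of all gene windows, so that this limit does not separate genes. In the genome as a whole 1612 matches passed the stricter limit, of which 13% lay in a site of at least 2 E18.5 libraries and 54.8% in a site of both E13.5 libraries. Of the 300 matches up to 22, as at Sst, 3% lay in an E18.5 site and 18.7% in an E13.5 site (exact 95% interval 14.4 to 23.5 for E13.5). Of the 166 from 23 to 24, as at Glp1r, 7.23% lay in an E18.5 site and 39.2% in an E13.5 site (31.7 to 47 for E13.5). Above 30 the shares were 31.8% at E18.5 and 90.7% at E13.5. Most matches as weak as those of Sst and Glp1r therefore lay in neither kind of site. A peak called in a single library did not count here.

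**Figure D4:**
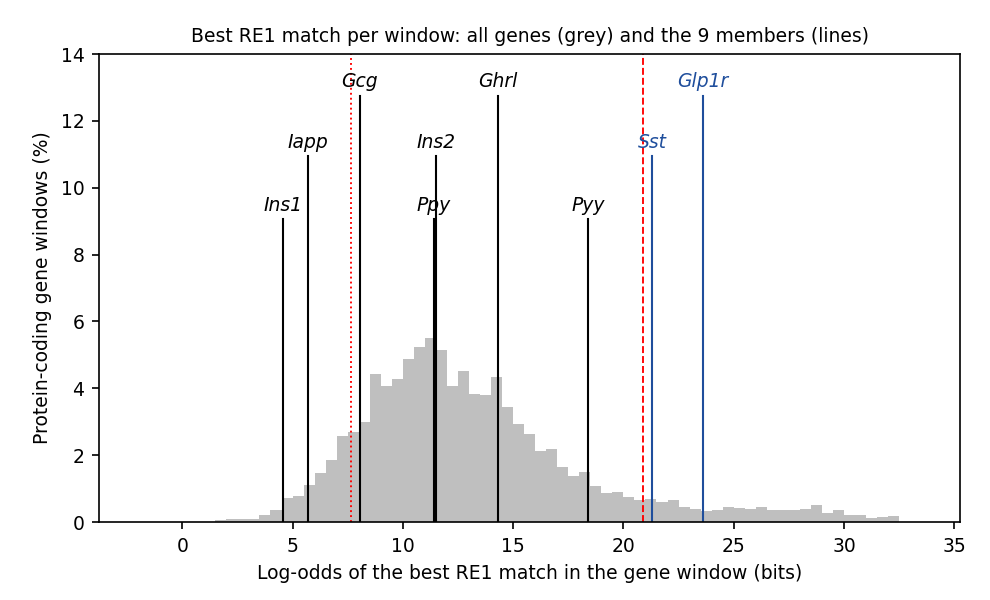
Log-odds (bits) of the best RE1 match in the window of each protein-coding gene (grey, percent of windows), with lines for the 9 genes (blue, peak called; black, no peak) and red lines at the limits set at the upper 1% (dotted) and 0.1% (dashed) of control windows. Sst at 21.3 and Glp1r at 23.6 are the 2 members to the right of the dashed line at 20.9.

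Among the bound sites themselves, those of Sst and Glp1r had elements of less than median strength. The best match of 68.4% of the 1183 shared E13.5 sites searched was stronger than that of Sst, and of 59.6% stronger than that of Glp1r. The pair of matches at Sst was less usual at the limit of 20.9, but the weaker of them passed it by 0.00087 only. Pairs were not counted at other limits. At least 2 non-overlapping matches above 20.9 were present in 44 of these sites (3.72%), and at least 1 in 821 (69.4%).

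**Figure D5:**
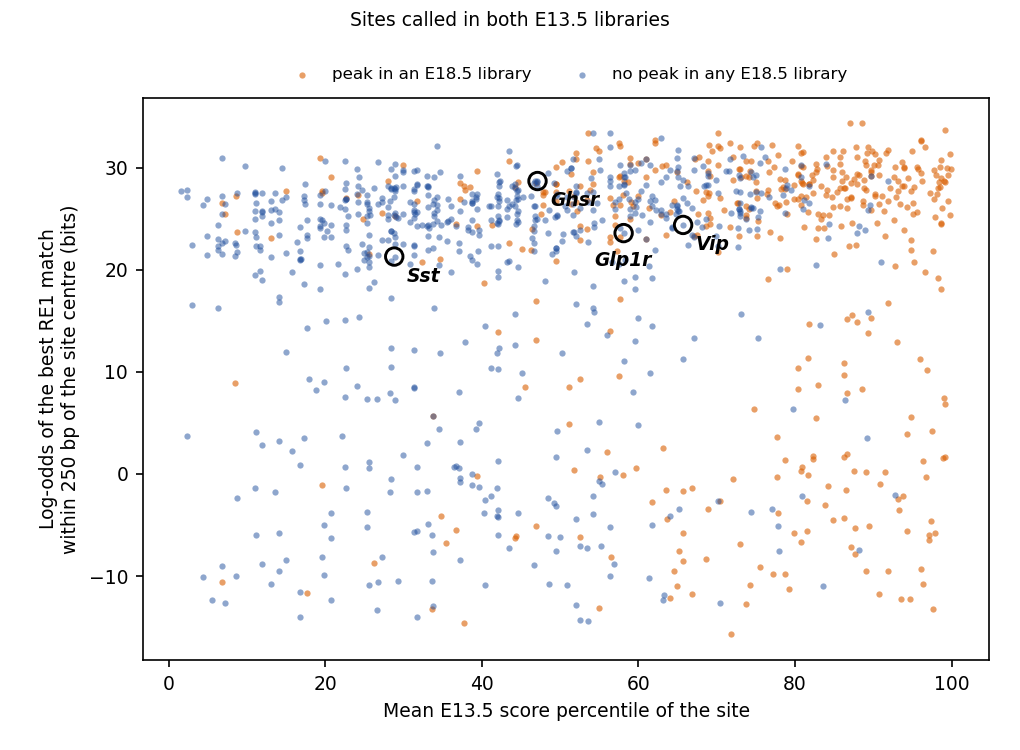
Mean E13.5 score percentile (horizontal) and log-odds of the best RE1 match (vertical, bits) for each site called in both E13.5 libraries, coloured by whether an E18.5 library had a peak there (orange) or not (blue), with circles at Sst, Glp1r, Vip and Ghsr. Sst lies at 28.8 and 21.3 and Glp1r at 58.1 and 23.6, both among sites without an E18.5 peak.

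The families to which these hormones and receptors belong were examined with the same windows. The 52 related genes were drawn from the insulin, glucagon and secretin, somatostatin, neuropeptide Y and calcitonin families. They also took in other gut and islet peptides and hormone receptors. Of these 52 genes, 1 had a site in at least 2 E18.5 libraries and 3 had a site in both E13.5 libraries. These counts stand beside 2.2% and 6.9% of all genes, so the relatives were close to the background at each stage. Of 28 peptide genes 1 was bound at E18.5 and 2 at E13.5, and of 24 receptor genes 0 were bound at E18.5 and 1 at E13.5. The 12 other class B receptors on the list, among them Gcgr and Gipr, had no such site. The list leaves out some class B receptors, such as Crhr1 and Crhr2, which were not examined. Cort, the paralogue of Sst, and the somatostatin receptors Sstr1 to Sstr5 had no such site either. At a background of 6.9% lists this short hold few or no called genes, so these zeros are not a result about Glp1r or Sst.

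Vip encodes vasoactive intestinal peptide, a relative of glucagon used by gut and pancreatic neurons. No E18.5 library had a peak there, and E13.5 A and B had scores of 18 and 22 (percentiles 66.0 and 65.4). The site was 117 bp downstream of the start, in the UTR (chromosome 10, 4706978 to 4707435). Ghsr, the ghrelin receptor gene, likewise had no E18.5 peak and scores of 13 and 17 in E13.5 A and B (percentiles 44.8 and 49.3), 1.01 kb upstream of its start (chromosome 3, 27269034 to 27269491). Of the ligand and receptor pair of ghrelin, the site was thus called at the receptor. Both elements are printed because they sit nearly at the gene start, as that of Sst does.
Vip: TTCAGCACCctaGACAGCtgC
Ghsr: TTCAGCACCtcGGcCAGCgCC

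The Vip element had a log-odds of 24.4 and 3 mismatches (chromosome 10, 4707215 to 4707235), and that of Ghsr 28.7 and 2 mismatches (chromosome 3, 27269253 to 27269273), so that both were stronger than those of Sst and Glp1r. At the E18.5 stage the 1 related gene with a site was Insl3, a relaxin-like hormone of the testis. Its peak was 17.5 kb upstream, in the UTR of Unc13a and 0.031 kb from the start of that gene (chromosome 8, 74195339 to 74195911). It was called in all 5 libraries, with percentiles of 84.6, 95.4 and 94.7 in E18.5 A, B and C and of 94.3 and 93.4 in E13.5 A and B. The window thus gave Insl3 a site of a neighbouring gene.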

How the data were processed

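As described in the methods of the study and in the submitters' notes on processing, single-end 50-bp reads were aligned to NCBI36/mm9 with Bowtie2 2.2.5, BAM files were handled with SAMtools and peaks were called against input DNA with MACS2 2.1.0. Each library has its own deposited list, named as free of duplicates and as called at a false discovery rate of 10%. The study itself reports peaks called on pooled replicates at a stricter rate, so these lists are not its reported peak set. The authors gave each peak a score of unstated unit, which was used as a rank within its library. No peak on an assembled chromosome passed its end in the NCBIM37 (mm9) reference, and coordinates are mm9, counted from 1. The 25 peaks on unplaced sequence were given to no gene.

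Overlapping entries of a list were merged, with the highest score kept. Peaks of different libraries that overlapped by 1 bp or more formed 1 site. Genes came from GENCODE vM1. The 21-bp motif was seeded with the most overrepresented short word of the sites and realigned repeatedly. Motif learning and window assignment were tested on simulated data. Intervals are exact binomial and cover counting error only. An exact permutation test of the stages over libraries was run but supports no statement, since the genes it could be run on were those with a peak. Analyses used Python 3.11.15, NumPy 2.4.6, SciPy 1.17.1, pandas 2.3.3 and pysam 0.24.0.

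The members and the lists of related genes were chosen with earlier results of these data known. All members are named, and of the related genes those with a site in both E13.5 or at least 2 E18.5 libraries. Windows, gene starts, thresholds, overlaps, motif and libraries were varied.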

Additional observations from a re-analysis of the deposited data

How the results depend on the processing

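The E18.5 count was 0 of 9 genes for each window, threshold and assignment, for a peak in any library and without each E18.5 library in turn. Since no E18.5 library had a peak in any of the windows, most of these alternatives could only return 0. The window of 100 kb, the GREAT domain and all transcript starts widened the search and could have raised the count, but did not. The E13.5 count of 2 genes was kept (Sst and Glp1r) with a window of 100 kb, the GREAT domain of the study, all transcript starts, peak centres, a peak in either library and without either library (lowest and highest 2). It was 1 (Sst) with windows of 5 kb and 20 kb and, in an alternative added after seeing the data, when each site went to its nearest start, and 1 (Glp1r) with the upper 50% of each list by score. It was 0 when each list was cut to its 226 highest scores, and 0 when peaks had to cover 50% of each other, since the E13.5 A peaks are short. Ranked within the upper 50% of each list by score, the E18.5 minus E13.5 percentile difference was 0 for Sst and -16.2 for Glp1r. The 0 for Sst arose because neither of its peaks was in the upper 50%, so that no Sst peak was left to rank. The number of members with an RE1 match, 7 at the limit of 1% of control windows, was 2 at 0.1%, 9 at 5%, 6 with the motif of promoter-proximal sites, and 6 and 9 with windows of 20 and 100 kb. Libraries of different stages with the same letter come from different embryos. With the letter as a replicate block (A and B only) the E18.5 minus E13.5 difference was -28.8 percentile points for Sst and -58.1 for Glp1r. It had to equal the difference without the block, since all E18.5 values are 0. Unknown read depth limits every statement on missing peaks.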

Other observations

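Peaks called in a single library were present near further relatives of the islet hormones. Adcyap1, which encodes the neuropeptide PACAP of the glucagon and secretin family, had no E18.5 peak and a peak of score 7 in E13.5 A only, at a percentile of 9.18, 0.968 kb upstream of its start (chromosome 17, 93597739 to 93597850). Its best RE1 match was weak, with a log-odds of 3.66 and 6 mismatches. Calcb, the gene of a calcitonin gene-related peptide and a relative of Iapp, had no E18.5 peak and a peak of score 6 in E13.5 A only, at a percentile of 4.21, 11.1 kb upstream (chromosome 7, 121851051 to 121851153). Its match of 22.8 bits was stronger than that of Sst, which both E13.5 libraries called. The secretin gene Sct had a peak of score 6 in E18.5 B only, at a percentile of 53.4, 47.8 kb away and in an intron of Phrf1, and no E13.5 peak.

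The sites most like those of Sst and Glp1r were taken as those called in the same libraries, with a start within 50 kb and the closest mean E13.5 percentile, out of 364 such sites. For Sst these were at Khdrbs3, Olfr1340 and Angpt4, each at 28.8 with scores of 12 and 11 in E13.5 A and B, and 4 sites tied at this value. For Glp1r they were at Klhl7 and Gm20479, each at 58.1 with scores of 16 and 19, and at Cdhr3 at 58.2. No hormone or receptor gene of the lists was among them, but with so few sites named this is not a result about the lists.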
